A study of Homo sapiens with 9 samples.

Results

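The Krüppel-like factors (KLF) were examined in U2OS, a human osteosarcoma cell line, through 10 genes: KLF2, KLF3, KLF4, KLF5, KLF6, KLF7, KLF9, KLF10, KLF11 and KLF13. Every probe set of the expression array that the platform annotation assigns to one of these symbols and to no other gene was taken, which gave 32 of the 41097 probe sets with 1 symbol and 10 of the 19775 genes they stand for. KLF6, KLF7 and KLF9 have 5 probe sets each, KLF3 and KLF13 have 4, KLF2, KLF4, KLF5 and KLF11 have 2, and KLF10 has 1. The 9 arrays form 3 groups of 3: U2OS cells with the BAP1 hairpin shBAP1 #2, with the BAP1 hairpin shBAP1 #1, and with a non-targeting hairpin, shControl. Every group received its hairpin plasmid by lipofection, was selected in puromycin and was then held before S phase by a double thymidine block, so the controls share the selection and the arrest. Whether the 3 arrays of a group come from separate cultures is not stated, so p-values reflect only the spread between these samples and that spread may be technical.

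KLF proteins are zinc finger transcription factors that bind GC boxes and CACCC elements through a conserved C-terminal DNA-binding domain, a domain they share with the Sp factors. Their N-terminal parts differ and recruit acetyltransferases in some members and the corepressors CtBP or Sin3 in others, so the family holds activators and repressors that compete for similar sites. BAP1 is a nuclear deubiquitinase, and KLF5 protein is one of its known substrates. These arrays measure RNA only and do not show the level of any KLF protein.

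Values are log2 expression after robust multi-array averaging (RMA), and a change is a difference of group means on this log2 scale, so that 1 unit is a doubling. Levels of different probe sets are not comparable with each other. A probe set was called changed at a Benjamini-Hochberg adjusted p below 0.05 over all 41097 probe sets in limma, and standard errors (SE) come from that fit with n = 3 arrays per group. Each gene is led by its probe set with the highest mean over the 9 arrays. A probe set is called dim where that mean lay below 5.44, the median over all probe sets of the array, because background compresses changes there.

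No probe set with 1 symbol was assigned to BAP1, so the knockdown was not analysed here. Arrays of 1 group correlated across probe sets at r of 0.995 to 0.997, and hairpin arrays with control arrays at 0.981 to 0.990. Arrays of shBAP1 #2 correlated with those of shBAP1 #1 at 0.977 to 0.987. Within shBAP1 #2, replicate 1 had the highest mean correlation with the control arrays (0.989, against 0.981 for its other replicates). The difference between 3' and 5' actin probe sets, which grows as RNA degrades, was 0.39 to 0.46 with shBAP1 #2 and 0.39 to 0.41 with shBAP1 #1. In shControl it was 0.47 to 0.51. Replicate 1 of shBAP1 #2 (0.46) lay nearest to the controls, with its other replicates at 0.39. The part of this difference in the KLF changes or in the spread within shBAP1 #2 was not tested. For GAPDH the same difference overlapped between groups, at -0.04 to -0.03 with shBAP1 #2 and -0.05 to -0.03 with shBAP1 #1, against -0.06 to -0.02 in shControl. Of 11 measured mesenchymal and osteoblast markers, 7 lay above the dim range, among them VIM, COL1A1, SPARC and RUNX2, whereas COL1A2, ALPL, TWIST1 and NT5E were dim on average. The mean level of these 11 per array was 8.24 to 8.30 with shBAP1 #2 and 8.56 to 8.64 with shBAP1 #1, against 8.09 to 8.15 in shControl. Of 14 markers of other cell types, 9 were dim and 5 were not (CD79A, PECAM1, EPCAM, DES and MYOD1), and PECAM1 and EPCAM were lower with both hairpins. The mean level of the 14 per array was 5.20 to 5.31 with shBAP1 #2 and 5.16 to 5.26 with shBAP1 #1, against 5.36 to 5.40 in shControl, and the part of either marker list in the KLF results was not tested.

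Most KLF genes changed with at least 1 hairpin. With shBAP1 #2, the leading probe sets of KLF3, KLF5, KLF6, KLF7, KLF9 and KLF11 rose and that of KLF13 fell. With shBAP1 #1, those of KLF6, KLF7, KLF11 and KLF13 rose and those of KLF3 and KLF5 fell. KLF6, KLF7 and KLF11 thus rose with both hairpins, KLF3, KLF5 and KLF13 changed in opposite directions, and KLF2, KLF4 and KLF10 were not called in either comparison. That made 7 of 10 genes called with shBAP1 #2 and 6 of 10 with shBAP1 #1, where 32.3% and 24.5% of all leading probe sets were called. Over all 32 probe sets, 16 were higher and 2 lower with shBAP1 #2, together 56.2% against 28.9% of all probe sets tested. With shBAP1 #1, 9 were higher and 4 lower, together 40.6% against 21.8% of all. By the annotation of GRCh38.p14, KLF11 lies at chr2:10043550-10054836, KLF7 at chr2:207074137-207173851, KLF3 at chr4:38664199-38701517, KLF6 at chr10:3775996-3785209, KLF5 at chr13:73054976-73077538 and KLF13 at chr15:31326835-31435665. All called KLF probe sets were among the 23 that were not dim, and of all such brighter probe sets 45% were called with shBAP1 #2 and 34.7% with shBAP1 #1. Probe sets of 1 gene read transcripts of that gene, not always the same ones, and are not independent. The median change of the 32 was 0.31 with shBAP1 #2 and 0.17 with shBAP1 #1, where the medians of all probe sets were 0.02 and 0.01. Without shBAP1 #1 replicate 1, the count for that hairpin was 8.

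**Figure D1:**
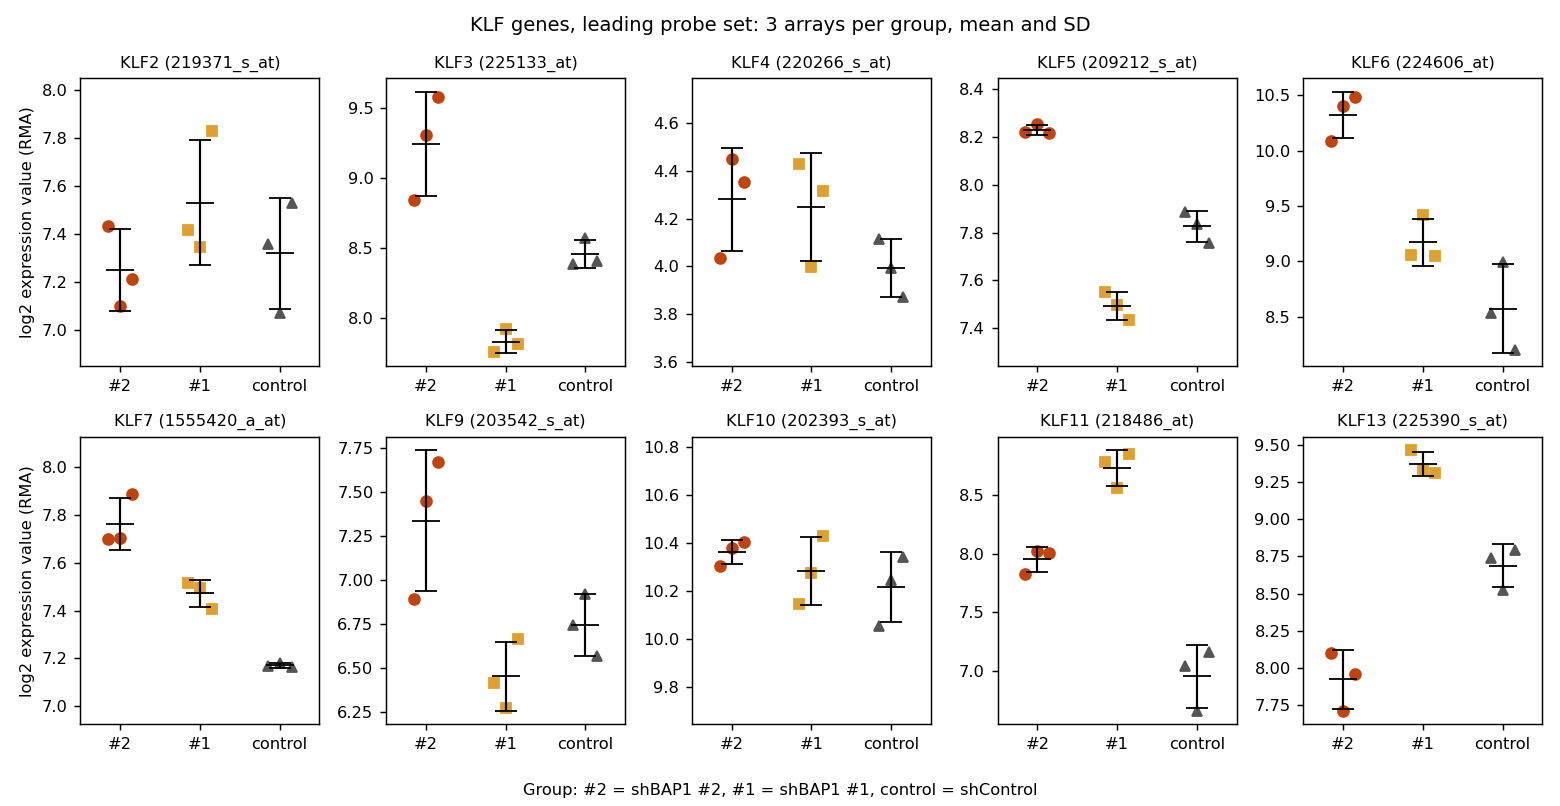
Log2 expression value of the leading probe set of each of the 10 KLF genes (y axis) in shBAP1 #2, shBAP1 #1 and shControl arrays (x axis). Points are single arrays, and the black bars give the mean and SD of 3 arrays; KLF6, KLF7 and KLF11 lie above the controls with both hairpins, and KLF3, KLF5 and KLF13 lie on opposite sides of them.

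KLF11, a TGF-beta-inducible repressor that recruits Sin3, rose more than any other KLF gene with shBAP1 #1. Its leading probe set 218486_at read 7.83, 8.02 and 8.003 with shBAP1 #2 and 8.78, 8.56 and 8.85 with shBAP1 #1, against 7.04, 6.65 and 7.16 in shControl. The 3 groups did not overlap, and shBAP1 #1 was the highest. Over all probe sets, the groups did not overlap in 39.1% for shBAP1 #2 and shControl, in 35.1% for shBAP1 #1 and shControl, and in 40.1% for the 2 hairpins. The change was 1.00 ± 0.13 (SE) with shBAP1 #2 (adjusted p = 0.000206) and 1.78 ± 0.13 with shBAP1 #1 (adjusted p = 1.26e-05), and only 0.204% of all probe sets changed as much or more in either direction with shBAP1 #1. The hairpins differed by -0.78 (shBAP1 #2 minus shBAP1 #1, adjusted p = 0.000812). The other probe set of KLF11, 1553137_s_at, gave smaller changes of the same sign, 0.33 with shBAP1 #2 and 0.91 with shBAP1 #1, and a difference between the hairpins of -0.58. Its call with shBAP1 #2 (adjusted p = 0.0435) did not hold in 6 of the 9 fits with an array removed, and replicate 1 of shBAP1 #2 (5.68) lay within the range of the controls (5.40 to 5.69). The adjusted p in those fits was 0.088 without shControl replicate 1, 0.159 without shControl replicate 2, 0.0556 and 0.0531 without shBAP1 #1 replicates 2 and 3, and 0.15 and 0.146 without shBAP1 #2 replicates 2 and 3.

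KLF6, an activator induced by injury and growth signals and known as a tumour suppressor, rose with both hairpins and more with shBAP1 #2. Its leading probe set 224606_at read 10.08, 10.40 and 10.49 with shBAP1 #2 and 9.05, 9.42 and 9.04 with shBAP1 #1, against 8.53, 8.99 and 8.19 in shControl. Every shBAP1 #2 array lay above every shBAP1 #1 array, and these lay above every control. The SD of the controls was 0.40 (n = 3), and their highest array (8.99) was close to the lowest shBAP1 #1 array. The change was 1.75 ± 0.19 (SE) with shBAP1 #2 (adjusted p = 6.61e-05) and 0.60 ± 0.19 with shBAP1 #1 (adjusted p = 0.0423). The hairpins differed by 1.15 (adjusted p = 0.00074). With shBAP1 #2 a change of this size or more was found in 0.443% of all probe sets.

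The further KLF6 probe sets 1555832_s_at, 208961_s_at and 208960_s_at rose by 1.65, 1.47 and 1.38 with shBAP1 #2. With shBAP1 #1 they changed by 0.48 (adjusted p = 0.0484), 0.60 (adjusted p = 0.0222) and 0.39 (adjusted p = 0.165), so that 1 of the 3 was not called. The dim probe set 211610_at was called with neither hairpin, at 0.10 and 0.28 for shBAP1 #2 and shBAP1 #1. The KLF6 calls with shBAP1 #1 were not stable when 1 array was removed. For 224606_at the call did not hold in 7 of the 9 fits with an array removed: without shControl replicate 1 (adjusted p = 0.12) or 3 (0.153), shBAP1 #1 replicate 1 (0.0707), 2 (0.155) or 3 (0.0567), and shBAP1 #2 replicate 2 (0.0596) or 3 (0.0525). The change of 224606_at over all 9 fits ranged between 0.41 and 0.81. The call of 1555832_s_at did not hold in the same 7 fits, at adjusted p up to 0.178. That of 208961_s_at did not hold in 4 of them, without shControl replicate 1 or 3 or shBAP1 #1 replicate 1 or 2, at adjusted p up to 0.0915.

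KLF6 has a single annotated start in RefSeq (GRCh38.p14), and so has KLF13, described further on as a gene that changed in opposite directions. The 250 bases before each start are shown because both genes gave large changes and because KLF and Sp factors bind GC boxes. Capitals mark the GC box GGGCGG on either strand (CCGCCC on the other). The KLF6 window is chr10:3785210-3785459 on the minus strand and the KLF13 window is chr15:31326585-31326834 on the plus strand, each printed 5' to 3' along its gene.
KLF6: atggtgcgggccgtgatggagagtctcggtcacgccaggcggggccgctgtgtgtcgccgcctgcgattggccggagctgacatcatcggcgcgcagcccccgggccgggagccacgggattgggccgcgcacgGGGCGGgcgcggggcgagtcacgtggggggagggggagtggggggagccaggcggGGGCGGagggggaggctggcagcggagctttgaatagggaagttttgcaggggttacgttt
KLF13: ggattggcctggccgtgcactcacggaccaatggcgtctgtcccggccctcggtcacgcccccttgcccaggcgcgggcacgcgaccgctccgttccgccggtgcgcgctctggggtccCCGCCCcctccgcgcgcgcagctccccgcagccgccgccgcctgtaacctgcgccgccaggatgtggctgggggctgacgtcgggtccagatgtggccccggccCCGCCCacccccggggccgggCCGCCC
The KLF6 window holds 2 GC boxes, 0 CACCC matches (either strand) and 2 CCAAT matches (either strand). The KLF13 window holds 3 GC boxes, 1 CACCC match, which overlaps a GC box, and 2 CCAAT matches. Of all 35116 promoter windows of 250 bases, 42.6% hold a GC box, 54.7% a CACCC match and 32% a CCAAT match. Promoter windows were listed for 8 of the 10 genes, without KLF3 and KLF10, and 8 of these 13 windows hold a GC box. The KLF9 window holds none. These matches describe the letters of the windows only.

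KLF7, a factor known from neuronal growth and from the repression of fat cell differentiation, rose with both hairpins. Its leading probe set 1555420_a_at read 7.70, 7.70 and 7.89 with shBAP1 #2 and 7.51, 7.49 and 7.41 with shBAP1 #1, against 7.17, 7.18 and 7.16 in shControl. The groups did not overlap, with shBAP1 #2 highest. The change was 0.59 ± 0.07 (SE) with shBAP1 #2 (adjusted p = 0.000149) and 0.30 ± 0.07 with shBAP1 #1 (adjusted p = 0.0117), and the hairpins differed by 0.29 (adjusted p = 0.00992). The probe set 204334_at moved more. It read 7.75, 7.88 and 7.85 with shBAP1 #2 and 7.36, 7.29 and 7.27 with shBAP1 #1, against 6.78, 6.57 and 6.44 in shControl, which gave changes of 1.23 and 0.71 (adjusted p = 8.04e-06 and 0.00021). Of the other KLF7 probe sets, 240432_x_at rose by 0.87 and 0.53 with shBAP1 #2 and shBAP1 #1, 238482_at rose by 0.56 with shBAP1 #2 and was at 0.22 with shBAP1 #1 (adjusted p = 0.155), and the dim 238517_at was called with neither. No array left out ended a call of KLF7 against shControl.

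Together, 8 KLF probe sets of these 3 genes rose with both hairpins and 0 fell with both, where 5.07% of all probe sets rose with both and 4.39% fell with both. By leading probe sets it was 3 of 10 genes, against 5.88% of all genes higher with both, and 3 genes changed in opposite directions, against 3.25%. The 2 comparisons share the 3 control arrays, so these counts are a description. For the mean of both hairpins against shControl, 10 of the 32 were called, all of them higher, where 24.2% of all probe sets and 38.5% of those that are not dim were called. By leading probe sets it was 3 genes, all higher, where 13.4% of all genes were higher. The count of 8 fell to 4 without shControl replicate 1 and without shBAP1 #1 replicate 2. It was 5 without shControl replicate 3, without shBAP1 #1 replicate 1 or 3, and without shBAP1 #2 replicate 2 or 3.

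KLF5, which drives proliferation in many epithelia and is the BAP1 substrate of the family, changed in opposite directions with the hairpins. Its leading probe set 209212_s_at read 8.22, 8.25 and 8.21 with shBAP1 #2 and 7.55, 7.50 and 7.44 with shBAP1 #1, against 7.89, 7.84 and 7.76 in shControl. The groups did not overlap, and the controls lay between the hairpins. The change was 0.40 ± 0.07 (SE) with shBAP1 #2 (adjusted p = 0.000912) and -0.33 ± 0.07 with shBAP1 #1 (adjusted p = 0.00401). The hairpins differed by 0.73 (adjusted p = 1.6e-05), with a 95% confidence interval of 0.59 to 0.88. For the mean of both hairpins the change was 0.04, with a 95% interval of -0.09 to 0.16.

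The other KLF5 probe set, 209211_at, fell with shBAP1 #1 as well and was not called with shBAP1 #2. It read 7.77, 7.93 and 8.17 with shBAP1 #2 and 7.31, 7.58 and 7.55 with shBAP1 #1, against 7.84, 7.79 and 7.90 in shControl. Its shBAP1 #2 arrays overlapped the controls, and its shBAP1 #1 arrays did not. The change was 0.12 with shBAP1 #2 (adjusted p = 0.497) and -0.36 with shBAP1 #1 (adjusted p = 0.0322), and the hairpins differed by 0.48 (adjusted p = 0.00538). The shBAP1 #1 call of 209211_at was lost without shControl replicate 1, 2 or 3 (adjusted p = 0.0855, 0.0575 and 0.102) and without shBAP1 #1 replicate 1 (0.131), while no array left out ended a call of 209212_s_at.

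KLF13, a family member that recruits Sin3, went the other way: it fell with shBAP1 #2 and rose with shBAP1 #1. Its leading probe set 225390_s_at read 8.10, 7.71 and 7.96 with shBAP1 #2 and 9.47, 9.34 and 9.31 with shBAP1 #1, against 8.74, 8.52 and 8.79 in shControl. The groups did not overlap, with the controls in the middle. The change was -0.76 ± 0.11 (SE) with shBAP1 #2 (adjusted p = 0.000383) and 0.69 ± 0.11 with shBAP1 #1 (adjusted p = 0.000995). The difference of -1.45 between the hairpins (shBAP1 #2 minus shBAP1 #1, adjusted p = 5.67e-06) was matched or passed in size by 1.49% of all probe sets. The probe set 219878_s_at gave -0.41 with shBAP1 #2 (adjusted p = 0.0147) and 0.32 with shBAP1 #1 (adjusted p = 0.0576), and the 2 dim probe sets were not called. The shBAP1 #2 call of 219878_s_at was lost without shControl replicate 3 (adjusted p = 0.0599) and without shBAP1 #2 replicate 2 (0.0553) or 3 (0.057), and it was called with shBAP1 #1 without shControl replicate 3 or shBAP1 #1 replicate 2.

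KLF3, a repressor that recruits CtBP, rose with shBAP1 #2 and fell with shBAP1 #1 on 2 of its 4 probe sets. Its leading probe set 225133_at read 8.84, 9.30 and 9.58 with shBAP1 #2 and 7.76, 7.92 and 7.81 with shBAP1 #1, against 8.39, 8.57 and 8.40 in shControl. The groups did not overlap, and replicate 1 of shBAP1 #2, the array of its group nearest to the controls over all probe sets, was the lowest of the 3. The change was 0.79 ± 0.15 (SE) with shBAP1 #2 (adjusted p = 0.00256) and -0.62 ± 0.15 with shBAP1 #1 (adjusted p = 0.0127), and the hairpins differed by 1.41 (adjusted p = 4.99e-05). The probe set 225140_at gave 0.60 and -0.71, both called, and a difference of 1.30.

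The other KLF3 probe sets did not show the fall with shBAP1 #1. 219657_s_at read 8.02, 8.27 and 8.25 with shBAP1 #2 and 8.11, 8.08 and 7.86 with shBAP1 #1, against 7.85, 8.02 and 7.69 in shControl. Its change was 0.33 with shBAP1 #2 (adjusted p = 0.0428) and 0.17 with shBAP1 #1 (adjusted p = 0.352, 95% interval -0.07 to 0.40). For 222913_at the changes were 0.18 (adjusted p = 0.133) and 0.00 (95% interval -0.18 to 0.18). None of the 4 is dim. With the mean of its 4 probe sets, KLF3 changed by -0.29 with shBAP1 #1 and was not called (adjusted p = 0.0808). The call of 225133_at with shBAP1 #1 was also lost without shControl replicate 2 (0.0523) or shBAP1 #1 replicate 1 (0.0513). That of 219657_s_at with shBAP1 #2 was lost in 6 of 9 such fits, without shControl replicate 1 or 3, shBAP1 #1 replicate 1 or 2, or shBAP1 #2 replicate 2 or 3, at adjusted p up to 0.151. Without shBAP1 #2 replicate 1, 222913_at was called with shBAP1 #2 as well.

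**Figure D2:**
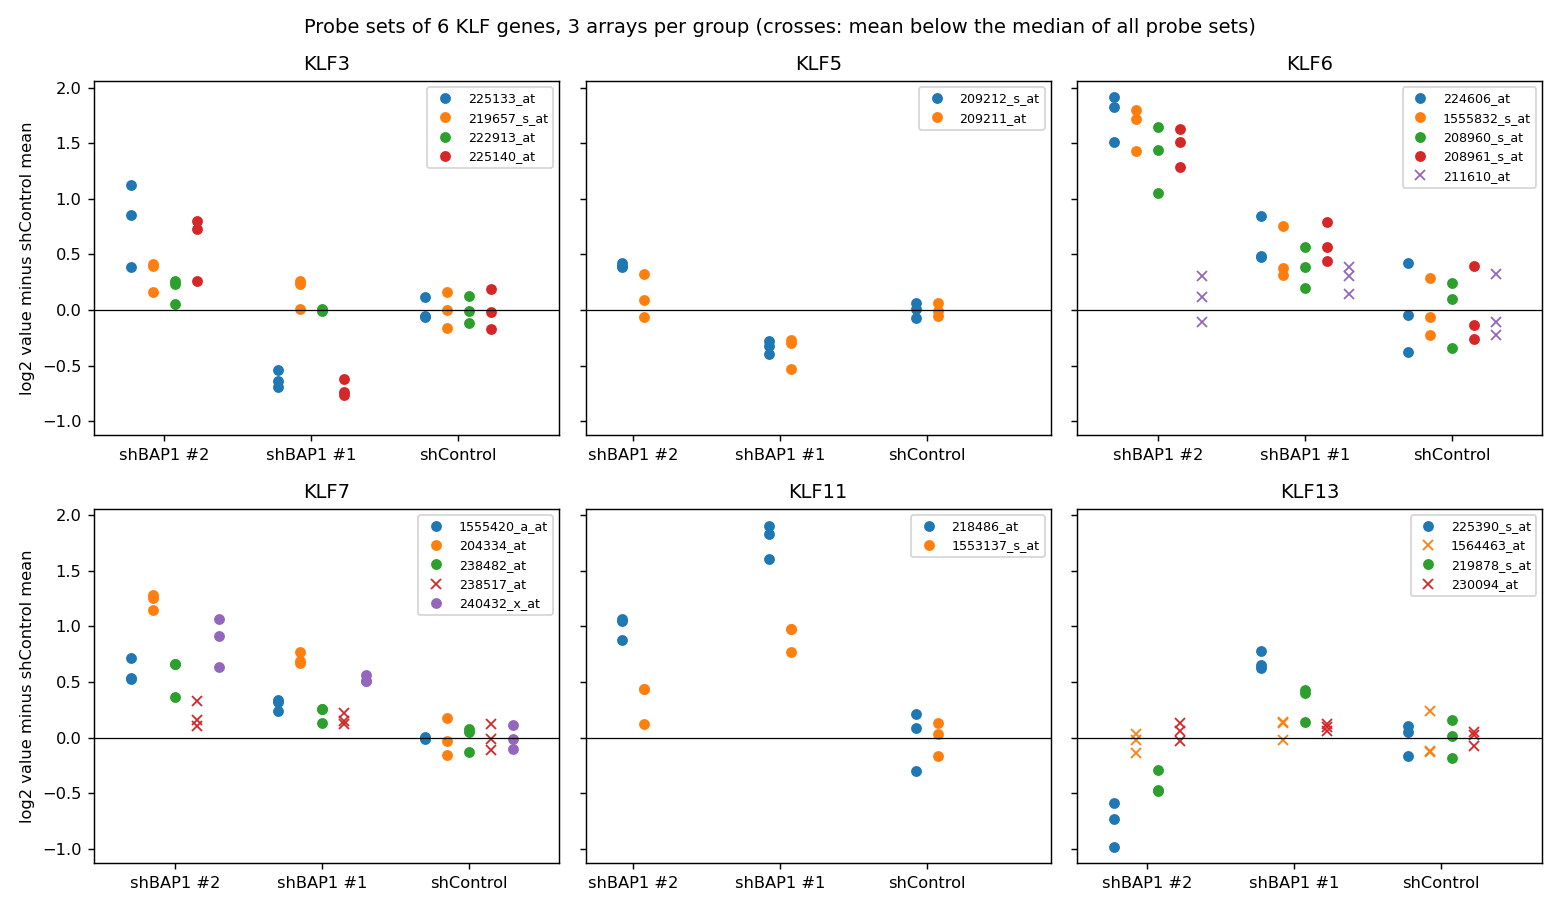
Log2 value minus the shControl mean of the same probe set (y axis) for every probe set of KLF3, KLF5, KLF6, KLF7, KLF11 and KLF13 (colours) in the arrays of shBAP1 #2, shBAP1 #1 and shControl (x axis, 3 points per probe set and group). Crosses mark dim probe sets; with both hairpins the probe sets of KLF6, KLF7 and KLF11 that are not dim lie above 0, whereas with shBAP1 #1 225133_at and 225140_at of KLF3 lie well below 0 and 219657_s_at and 222913_at lie near or above it.

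KLF9, a glucocorticoid- and thyroid hormone-responsive repressor, rose with shBAP1 #2 on 2 of its 5 probe sets. The leading probe set 203542_s_at read 6.89, 7.45 and 7.67 with shBAP1 #2 and 6.41, 6.28 and 6.67 with shBAP1 #1, against 6.75, 6.92 and 6.57 in shControl. Replicate 1 of shBAP1 #2 lay within the controls, and the shBAP1 #1 arrays overlapped the controls too. The change was 0.59 ± 0.18 (SE) with shBAP1 #2 (adjusted p = 0.0303) and -0.29 ± 0.18 with shBAP1 #1 (adjusted p = 0.327), and the hairpins differed by 0.88 (adjusted p = 0.00317). For 203543_s_at the groups did not overlap, with the controls in the middle. Its changes were 0.73 (adjusted p = 0.00981) and -0.41 (adjusted p = 0.142), with a difference of 1.14. The other 3 were not called. The call of 203542_s_at was lost without shControl replicate 1 (adjusted p = 0.0809) or 3 (0.109) and without shBAP1 #2 replicate 2 (0.104) or 3 (0.121), and without shBAP1 #2 replicate 1 its change was 0.81.

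KLF2, KLF4 and KLF10 were not called in any contrast. KLF10, a TGF-beta-inducible relative of KLF11, read 10.31, 10.38 and 10.40 with shBAP1 #2 and 10.15, 10.27 and 10.43 with shBAP1 #1, against 10.06, 10.25 and 10.34 in shControl. All groups overlapped. Its changes were 0.15 with shBAP1 #2 (95% interval -0.06 to 0.36) and 0.07 with shBAP1 #1 (-0.14 to 0.28), and both intervals ended below the changes of the leading KLF11 probe set. KLF2, known from endothelium and quiescent T cells, read 7.44, 7.10 and 7.21 with shBAP1 #2 and 7.42, 7.35 and 7.83 with shBAP1 #1, against 7.36, 7.07 and 7.53 in shControl. These groups overlapped as well, with intervals of -0.40 to 0.26 and -0.12 to 0.54. KLF4, the reprogramming factor of epithelia and vessels, has only dim probe sets. Its leading one, 220266_s_at, read 4.04, 4.45 and 4.35 with shBAP1 #2 and 4.43, 3.996 and 4.32 with shBAP1 #1, against 4.11, 3.99 and 3.87 in shControl. The groups overlapped, and the changes were 0.29 (adjusted p = 0.143) and 0.25 (adjusted p = 0.233). Without shBAP1 #2 replicate 1, KLF4 was called with shBAP1 #2 at 0.41, and the mean of both hairpins was called without that array or without shBAP1 #1 replicate 2.

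**Figure D3:**
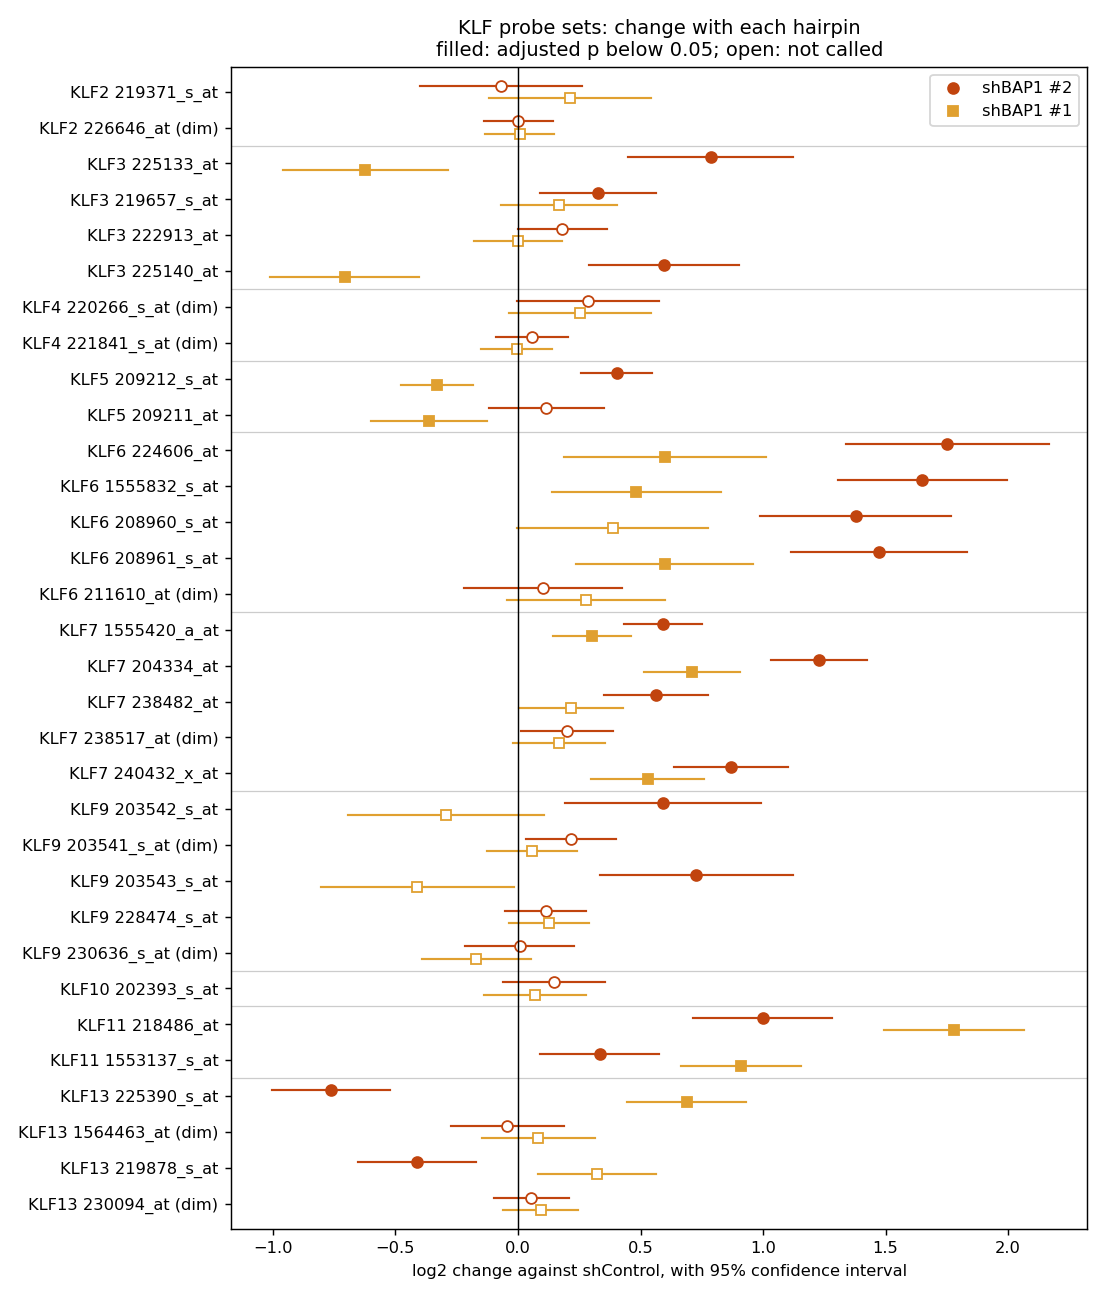
Log2 change against shControl (x axis) with 95% confidence intervals for all 32 KLF probe sets (y axis) with shBAP1 #2 (circles, upper) and shBAP1 #1 (squares, lower), from the limma fit with 3 arrays per group; filled symbols have an adjusted p below 0.05. KLF6 reaches 1.75 with shBAP1 #2 and KLF11 1.78 with shBAP1 #1, and all 9 dim probe sets are open.

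The difference between the hairpins was itself tested for every probe set. Of the 32, 14 were higher with shBAP1 #2 than with shBAP1 #1 and 4 were lower, together 56.2% against 30.3% of all probe sets and 46.9% of those that are not dim. By leading probe sets, KLF3, KLF5, KLF6, KLF7 and KLF9 were higher with shBAP1 #2 and KLF11 and KLF13 were lower. Of all leading probe sets 33.6% were called in this contrast, 16.5% higher and 17.1% lower. The order of the group levels from low to high was shControl, shBAP1 #1, shBAP1 #2 for KLF6 and KLF7 and shControl, shBAP1 #2, shBAP1 #1 for KLF11. For KLF3 and KLF5 it was shBAP1 #1, shControl, shBAP1 #2, and for KLF13 the reverse. All neighbours in these orders differed in the fit on the leading probe sets. For KLF9 the lower neighbours, shBAP1 #1 and shControl, did not differ beyond their spread. In 4 probe sets, 2 of KLF3 and 1 each of KLF5 and KLF13, both comparisons with shControl were called with opposite signs, which held for 2.9% of all probe sets. The calls of the difference for 2 KLF7 probe sets were not stable when 1 array was removed. That of 238482_at was lost without shBAP1 #1 replicate 1 or shBAP1 #2 replicate 2 or 3, at adjusted p up to 0.0735. That of 240432_x_at was lost without any 1 of the shBAP1 #1 arrays or without shBAP1 #2 replicate 2 or 3, at adjusted p up to 0.117.

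The genes most like 3 KLF genes over the 9 arrays were found by the root mean square difference between leading probe sets, each centred on its own shControl mean, among genes that are not dim. KLF5 was nearest to LRRC8E (0.0485), SLC16A1-AS1 (0.0578) and SH3GLB1 (0.0655). LRRC8E changed by 0.40 with shBAP1 #2 and -0.30 with shBAP1 #1. KLF6 was nearest to SCG5 (0.198), DOK5 (0.226) and XYLT1 (0.230), and KLF11 to SERINC5 (0.117), NEFL (0.148) and RBMS3 (0.161). Within the family all 10 leading probe sets were compared, the dim one of KLF4 included. The measure keeps the size of changes, so genes with small changes lie close whatever their pattern. The 3 closest pairs were KLF2 and KLF10 (0.230), KLF4 and KLF7 (0.239) and KLF4 and KLF10 (0.242). KLF5 and KLF9 (0.256) and KLF3 and KLF9 (0.258) came next. These are descriptions over arrays that share their groups.

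Of 15 measured other Sp and KLF genes, 10 were not dim. With shBAP1 #2, 0 were higher and 2 lower, where 16.3% and 16% of all leading probe sets were. With shBAP1 #1, 1 was higher and 2 lower, where 12.5% and 12% were. Of the 15, 0 were higher with both hairpins and 2 were lower with both, where 5.88% and 5.15% of all leading probe sets were. The Sp family activators SP4 and SP8 were those 2. SP4 read 7.89, 7.55 and 7.75 with shBAP1 #2 and 7.44, 7.52 and 7.44 with shBAP1 #1, against 8.34, 8.15 and 8.39 in shControl, so both hairpins lay below all controls. In 16.3% of all probe sets the 6 hairpin arrays lay all above or all below the controls. It fell by 0.57 with shBAP1 #2 and by 0.83 with shBAP1 #1 (adjusted p = 0.00116 and 0.00014). SP8, a developmental factor, fell by 0.53 and 0.80 (adjusted p = 0.00478 and 0.000515). Against shControl, the only other call was that of KLF12, a CtBP-recruiting repressor, which rose by 0.54 with shBAP1 #1 (adjusted p = 0.0156) and was at -0.39 with shBAP1 #2 (adjusted p = 0.0553). Between the hairpins, SP6 (0.46, adjusted p = 0.00197) and KLF15 (0.29, adjusted p = 0.0358) were higher with shBAP1 #2 than with shBAP1 #1, and KLF12 was lower (-0.93, adjusted p = 0.000385). KLF12, SP6 and KLF15 were named after their values were seen. The median change of this list was 0.01 with shBAP1 #2 and 0.03 with shBAP1 #1.

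Among 14 measured cofactors of KLF proteins, 1 was higher and 6 were lower with shBAP1 #2, where 16.3% of all leading probe sets were higher and 16% lower, and 1 was higher and 3 lower with shBAP1 #1, where 12.5% and 12% were. The median change of the cofactors was -0.19 (shBAP1 #2) and -0.04 (shBAP1 #1). KAT2B, an acetyltransferase also called PCAF, read 5.62, 4.72 and 4.72 with shBAP1 #2 and 5.50, 5.45 and 5.53 with shBAP1 #1, against 7.07, 6.56 and 7.02 in shControl. All hairpin arrays lay below all controls, at changes of -1.86 and -1.39 (adjusted p = 0.000116 and 0.000931). Such a separation, in either direction, was found in 16.3% of all probe sets. SIN3B, a Sin3 corepressor scaffold, rose by 0.51 and 0.56 (adjusted p = 0.000605 and 0.000465). Its paralogue SIN3A fell by 0.63 with shBAP1 #2 and was at -0.15 with shBAP1 #1 (adjusted p = 0.297). HCFC1, which encodes the BAP1 partner HCF-1, was called with neither hairpin against shControl (-0.07 and 0.15). The hairpins differed for HCFC1 by -0.23 (shBAP1 #2 minus shBAP1 #1, adjusted p = 0.0197). SIN3A and HCFC1 were named after their values were seen.

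Of 21 measured genes for the turnover of KLF proteins and their upstream signals, 6 were higher and 4 lower with shBAP1 #2, where 16.3% and 16% of all leading probe sets were, and 2 were higher and 4 lower with shBAP1 #1, where 12.5% and 12% were. MEF2A, an activator upstream of KLF2 and KLF4 transcription, was the 1 gene called the same way by both, at -0.35 and -0.81 (adjusted p = 0.00855 and 7.12e-05). The ubiquitin ligase genes WWP1 and FBXW7, whose products target KLF5 protein, rose by 0.62 and 0.40 with shBAP1 #2 and were at 0.10 and 0.21 with shBAP1 #1. Other turnover genes of this list did not all go this way. With shBAP1 #2 BTRC changed by 0.29 and ITCH by -0.35, both called. SMURF2 was called with neither hairpin (0.04 with shBAP1 #2 and 0.07 with shBAP1 #1). TGFBR1, a TGF-beta receptor gene, and FBXO32, a ubiquitin ligase subunit gene, changed in opposite directions. TGFBR1 changed by 0.58 with shBAP1 #2 and -0.57 with shBAP1 #1, and FBXO32 by 1.46 and -0.57. Except for MEF2A, these genes were named after their values were seen.

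Of 27 measured genes reported as KLF targets in various cells, 7 were higher and 5 lower with shBAP1 #2, where 16.3% and 16% of all leading probe sets were, and 4 were higher and 6 lower with shBAP1 #1, where 12.5% and 12% were. With both hairpins 2 were higher, 2 lower and 3 opposite, where 5.88%, 5.15% and 3.25% of all leading probe sets were. CDKN1A, which encodes the cell cycle inhibitor p21, read 11.60, 11.74 and 11.75 with shBAP1 #2 and 11.79, 11.79 and 11.73 with shBAP1 #1, against 10.91, 10.95 and 10.96 in shControl. All hairpin arrays lay above all controls, as 16.3% of all probe sets did in 1 direction or the other. The changes were 0.75 and 0.83 (adjusted p = 2.59e-05 and 2.13e-05). DUSP1, a MAP kinase phosphatase gene, rose by 0.37 and 0.57, while BIRC5, which encodes survivin, fell by 1.08 and 1.29 and ODC1, the gene of ornithine decarboxylase, fell by 0.37 and 0.52. CCND1, the cyclin D1 gene, rose by 1.11 with shBAP1 #2 and was at 0.13 with shBAP1 #1 (adjusted p = 0.428). CDKN1B, which encodes p27, was called with neither (0.15 and -0.01).

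LGALS3, the galectin-3 gene, TXNIP, a thioredoxin inhibitor gene, and TGFBR1 were the 3 targets that changed in opposite directions. LGALS3 read 10.96, 10.84 and 10.90 with shBAP1 #2 and 8.97, 9.27 and 9.51 with shBAP1 #1, against 10.09, 9.92 and 10.12 in shControl. The groups did not overlap, with the controls in the middle, as for KLF3 and KLF5. The changes of LGALS3 were 0.85 and -0.80, and those of TXNIP were -1.23 and 0.88. LGALS3, TXNIP, CCND1, CDKN1B and ODC1 were named after their values were seen.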

How the data were processed

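The authors deposited 1 log2 value for each probe set and array, made with RMA, a tool that the submitters' processing notes name without a version. RMA corrects background, gives all arrays the same intensity distribution and summarises probes, so a shift of all transcripts is removed and dim changes are compressed. The table holds 54675 probe sets, of which 41097 had 1 symbol in the platform annotation, 1801 several and 11777 are unnamed here. 41043 of the 41097 matched a gene table of GRCh38.p14 by identifier and 0 symbols needed an update. For arrays, their number limits the precision.

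Linear models (lmFit and eBayes in limma 3.58.1, R 4.3.3, two-sided, no covariates) were fitted over all 9 arrays (residual degrees of freedom 6, prior 4.56). 4 contrasts were taken: shBAP1 #2 over shControl, shBAP1 #1 over shControl, the hairpins' average over shControl, and shBAP1 #2 over shBAP1 #1. The model was tested on simulated data with independent noise and the same change in both hairpins. That setting is simpler than these data, so it does not show how reliable the calls here are. The alternatives were 1 probe set or the mean per gene, all probe sets, dim or shared-probe sets left out, cyclic loess, trend and robust eBayes, array weights, 2 groups only, the replicate block and each array left out. From the lists of other Sp and KLF genes, cofactors, turnover and upstream genes and reported targets, a rule named up to 3 genes each, those called the same way by both hairpins with the largest mean change, and it named the 3 genes most like KLF5, KLF6 and KLF11. The markers of cell types fall outside this rule, and those named were chosen after their values were seen. The members and lists were chosen with earlier results of these data known. Some genes of the lists are not reported here. Of the 32 KLF probe sets, 19 carry a suffix for probes shared between transcripts, 1 of them (240432_x_at) the suffix for unrelated transcripts. Promoter sequences are from RefSeq. Plots were made in Python 3.11.15 (matplotlib 3.10.9).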

Additional observations from a re-analysis of the deposited data

Results flagged for a closer look

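The effect of the 2 hairpins differed, by the test of the difference itself, in 18 of the 32 KLF probe sets. All differences are shBAP1 #2 minus shBAP1 #1 on the log2 scale, with limma's adjusted p below 0.05. KLF3 gave 1.41 (225133_at) and 1.30 (225140_at), KLF5 0.73 (209212_s_at) and 0.48 (209211_at), and KLF9 0.88 (203542_s_at) and 1.14 (203543_s_at). KLF6 gave 1.15 (224606_at), 1.17 (1555832_s_at), 0.99 (208960_s_at) and 0.87 (208961_s_at). KLF7 gave 0.29 (1555420_a_at), 0.52 (204334_at), 0.35 (238482_at) and 0.34 (240432_x_at). KLF11 gave -0.78 (218486_at) and -0.58 (1553137_s_at), and KLF13 -1.45 (225390_s_at) and -0.73 (219878_s_at). Groups of 3 arrays are too small to tell an outlying array from ordinary spread. The fits with 1 array left out show only how far the calls depend on each array.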

How the results depend on the processing

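Of 59 called changes of KLF probe sets, 939 of 1003 recalculations kept the call, 64 lost it and 0 reversed. Of the 69 not called, 19 of 1109 recalculations gave a call. The recalculations share arrays and the contrasts overlap, so these counts are a description. Losses were uneven. With shBAP1 #1 the KLF6 call was lost in 9 of 19 recalculations for 224606_at and 10 of 16 for 1555832_s_at. The shBAP1 #2 call of KLF11 1553137_s_at was lost in 9 of 16, and that of KLF6 224606_at in 0 of 19. With 1 probe set per gene the called KLF genes of 10 were 7 for shBAP1 #2, 6 for shBAP1 #1, 7 for the difference between the hairpins, 3 for the mean of both and 3 the same way by both. With probe sets averaged within each gene they were 7, 5, 7, 3 and 3. With probe sets of shared probes left out, the counts were 6, 6, 7, 4 and 3 of 13. These settings test fewer features. The count the same way by both, 8 of 32, was 5 when all probe sets of the array were tested and 5 when each fit held only its own 2 groups. Testing all probe sets adds features to the adjustment, and 2 groups leave fewer samples to a fit. Leaving out 1 array gave 14 to 20 for shBAP1 #2, 8 to 13 for shBAP1 #1, 16 to 19 for the difference, 10 to 12 for the mean of both and 4 to 8 for the same way by both. The replicate block gave 18, 15, 18, 10 and 9. Same-numbered arrays had correlations of deviations between -0.19 and 0.23, over 0.1 in 4 of 9 pairs. Arrays of different numbers had -0.21 to 0.21, over 0.1 in 4 of 18 pairs. These ranges overlap and the pairs are few, so whether the numbers pair the samples cannot be told. With the replicate block 208960_s_at of KLF6 (adjusted p = 0.0066) and 219878_s_at of KLF13 were also called with shBAP1 #1. For the mean of both hairpins, the fit of 2 groups has no value. The alternatives were run for KLF probe sets only. Dim probe sets, KLF4 above all, limit what could be seen.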

Other observations

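The noncoding neighbours of 2 KLF genes were dim and not called in any contrast. KLF3-AS1, antisense to KLF3, changed by -0.15 with shBAP1 #2 and -0.08 with shBAP1 #1 on 1570414_x_at, and by 0.04 and 0.08 on 219871_at. KLF9-DT, which starts beside KLF9 on the other strand, changed by -0.04 and -0.20 (adjusted p = 0.786 and 0.118).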
